A study of Mus musculus with 2 samples.

Results

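To describe mature neutrophils that travel with cells sorted as osteal macrophages, barcodes were selected from a multiplexed single-cell library by what their RNA contained. A barcode was a member when S100a8 and S100a9 together held at least 5% of its gene UMIs (unique molecular identifiers, one per captured RNA molecule), when the activation genes Ccl3, Ccl4 and Jaml held less than 0.1%, and when the stefin genes Stfa2, Stfa2l1 and Cstdc5 held less than 0.2%. Members also had less than 1% of Camp, Ngp and Ltf, fewer than 2 UMIs of Mki67 and Top2a, and less than 0.5% of Prg4 and Dcn. These limits left 600 of 2349 barcodes, called stefin-low resting neutrophils here. Resting means only that Ccl3, Ccl4 and Jaml were under their limit, not that other inflammatory genes were silent. The levels of the genes in these limits, and every comparison of the members with the remaining cells, are therefore descriptions.

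The cells came from femurs and vertebrae of female BALB/c mice that had been ovariectomized (OVX) or sham operated at 10 weeks of age and were killed 4 weeks after surgery, with 20 mice pooled for each condition. After the periosteum had been taken off and the femoral marrow flushed out, they were released with trypsin and an overnight collagenase digest and sorted as CD11b+ cells that also carried F4/80 or CD68, so that the gate, and not a random draw from bone, decided which cells were present. OVX cells carried hashtag antibody 1 and sham cells hashtag antibody 2, and both pools were run in the same droplet reaction. Loading records in the labels give 1037 OVX cells and 1084 sham cells, whereas the demultiplexing method HTODemux placed 1059 barcodes with OVX and 981 with sham and left 78 with both hashtags and 231 with neither. With 1 pool per condition there is no spread between replicates, no test was possible, and each interval below is an exact 95% interval for counting error only. Fewer cells of a kind in the mice and fewer of them passing the sort cannot be told apart.

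Neutrophils are short-lived granulocytes that mature in bone marrow, where they make their granule proteins in waves, stop dividing, and leave through the balance of the receptors Cxcr4, which retains them, and Cxcr2, which draws them out. S100a8 and S100a9 form calprotectin, the calcium-binding protein that fills the mature cell's cytosol. Stefins are small inhibitors of cysteine cathepsins, and a mouse-specific cluster of stefin A genes is transcribed in late neutrophils. WAP-domain proteins such as Wfdc17, Wfdc21 and Slpi are secreted and include inhibitors of neutrophil serine proteases.

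The label of a mature neutrophil fitted the markers that the limits had not used. Cxcr2 stood at 1974 CPM (UMIs per 1000000 gene UMIs summed over cells, 95% interval 1920 to 2029), and after thinning each cell to 1000 UMIs a Cxcr2 UMI was found in 443 of 568 members (78%) and in 3.37% of barcodes rich in the stromal genes Prg4 and Dcn. Without thinning these shares were 95% and 24.3%, at median depths of 3515 and 20523 UMIs. The gelatinase Mmp9 stood at 2115 CPM, the collagenase Mmp8 at 1443 CPM, the surface antigen Ly6g at 1263 CPM and lipocalin Lcn2 at 1939 CPM. By contrast, the 10 macrophage genes Adgre1, Cd68, Csf1r, C1qa, C1qb, C1qc, Mrc1, Mertk, Siglec1 and Ms4a7 summed to 69.2 CPM, of which Cd68 made up 55.2 CPM. Adgre1, which encodes the F4/80 antigen used in the sort, stood at 3.89 CPM (1.86 to 7.15), and C1qa, C1qb, C1qc and Ms4a7 had no UMI in any member. The labelled cell type of the samples, macrophage, was thus not matched by its defining transcripts in these cells. Primary granule genes, made by promyelocytes, summed to 1.17 CPM, and Mki67, Top2a and Hist1h1b to 5.83 CPM. The macrophage sum was 91.7 CPM (OVX) and 56.6 CPM (sham), a ratio of 1.62 (1.18 to 2.22). The endothelial genes Pecam1, Cdh5 and Kdr summed to 72.3 against 23.2 CPM (3.12, 2.03 to 4.86). Over all members Pecam1 made up 40.8 of the 42.4 CPM, so this is close to a ratio of Pecam1 alone. The megakaryocyte genes Pf4, Ppbp and Itga2b summed to 382 against 215 CPM (1.78, 1.52 to 2.08). Pf4 made up 255 of the 260 CPM over all members, and 5 cells (2 OVX and 3 sham) held 98.5% of its UMIs. This ratio thus rested on very few cells, and that of Pf4 alone ran from 0.662 to 3.16 over the processing alternatives. Monocyte genes and T or NK cell genes went the other way, at 0.75 (0.516 to 1.08) and 0.735 (0.471 to 1.13). These sums too were mostly 1 gene each, Ly6c2 with 57.9 of 63.4 CPM and Cd3d with 46.6 of 47.0 CPM. The part of these lists in the comparison of the pools was not tested. The stromal genes Prg4 and Dcn, held down by the limits, gave 107 and 95.6 CPM, with OVX to sham ratios of 0.943 (0.725 to 1.22) and 1.02 (0.773 to 1.34).

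The depth of the members was moderate, with a median of 3515 gene UMIs and 1039.5 genes per cell. The 191 OVX members had a median of 3841 UMIs (quartiles 2428 and 6018) and the 357 sham members 3497 UMIs (2361 and 5303), so that the pools overlapped over most of their range. Summed over cells, 927227 UMIs stood behind the OVX levels and 1466908 behind the sham levels. Median mitochondrial share was 0.377% in OVX members and 0.211% in sham members. Summed over the cells, the 13 mitochondrial transcripts took 0.61% of OVX UMIs and 0.349% of sham UMIs, a ratio of 1.75 (1.68 to 1.82). Gm42418, a locus that overlaps ribosomal RNA and collects its reads, was likewise higher in OVX members, at 33526 against 17199 CPM. Neither mark of RNA content was used by the limits, and their part in the ratios below was not tested.

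In the OVX pool, 191 of 1059 cells (18%, interval 15.8 to 20.5) were stefin-low resting neutrophils, compared with 357 of 981 cells (36.4%, 33.4 to 39.5) in the sham pool. The OVX share was 0.496 of the sham share (0.414 to 0.592). The mirror image was seen in cells that met every limit other than the one on stefins, which made up 31.6% of the OVX pool (28.8 to 34.5) and 9.28% of the sham pool (7.53 to 11.3). When the stefin limit was dropped and both classes were counted together, the OVX pool held 526 such cells (49.7%, 46.6 to 52.7) and the sham pool 448 (45.7%, 42.5 to 48.8), so that the order turned round and the intervals overlapped. A lower share in the OVX pool was thus seen with the stefin limit in place and not without it. Across these 526 and 448 resting cells, the median stefin share was 0.384% of UMIs in OVX cells (quartiles 0.0759 and 1.16) and 0.0215% in sham cells (0 and 0.15). No stefin UMI was found in 74 OVX cells (14.1%, 11.2 to 17.3) and in 197 sham cells (44.0%, 39.3 to 48.7).

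**Figure D1:**
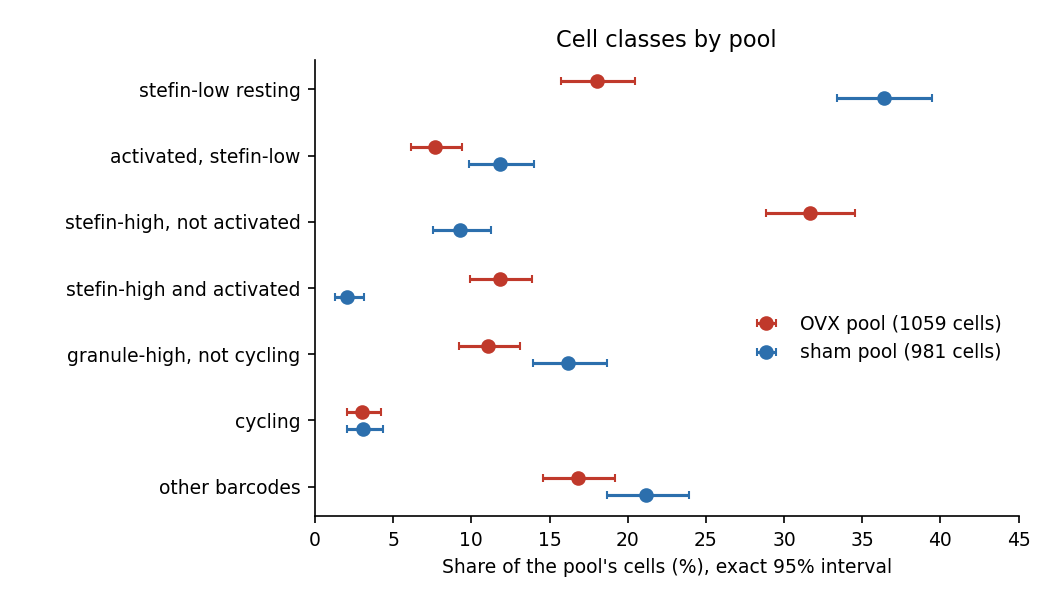
Share of each pool's cells (x axis, %) in 7 classes, with points for the OVX pool (red, 1059 cells) and the sham pool (blue, 981 cells) and bars for the exact 95% interval. The stefin-low resting class stood at 18% in the OVX and 36.4% in the sham pool, and the class that differed by the stefin limit alone at 31.6% and 9.28%.

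The stefin limit cut through a continuum. The member closest to it had 0.197% of stefin UMIs and the nearest cell outside had 0.201%, and 232 resting cells lay between 0.1% and 0.4%, of which 100 were members (44 OVX and 46 sham). Of the class itself, 297 of the 600 members (49.5%) had no UMI of the 3 genes, in the OVX pool 74 of 191 and in the sham pool 197 of 357. The activation limit had a similar edge, at 0.0997% inside and 0.1% outside, and 352 members (58.7%) had no UMI of Ccl3, Ccl4 or Jaml. Calprotectin RNA was far from its limit in most cells, with a median of 23.1% of UMIs. Short reads from the cluster can be hard to place. Of the 310 possible 91-base words in the last 400 bases of the annotated Stfa2 transcript, 7 occurred in another family gene, and for Cstdc5 93 of 593 did, so that the Cstdc5 level, and with it the sum of the 3 genes, is less certain than the level of Stfa2.

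Members were set beside the 3 other kinds of S100-high, granule-low, non-cycling cells, namely 212 activated stefin-low cells, 454 stefin-high cells without activation genes and 146 cells with both. Of 1246 genes at 100 CPM or more in either set, 20 (1.61%) stood at 1.5-fold or more in the members and 12 (0.963%) at 0.5-fold or less, while 3 (0.241%) reached 2-fold. Because the limits drew this contrast, nothing is read from these counts. The levels also take OVX and sham cells together, in mixes that differed by class. There were 191 OVX and 357 sham cells among the members, and 81 and 116 among the activated stefin-low cells. The stefin-high cells held 335 and 91, and the cells with both 125 and 20. The part of this mix in the folds and class levels was not tested. Calprotectin dominated both sides. S100a9 held 146696 CPM in the members and 129814 CPM in the other cells, and S100a8 held 111345 and 111679 CPM. Next in their share of UMIs came the ferritin heavy chain Fth1 at 52930 CPM, the nuclear RNA Malat1 at 34560 CPM, Gm42418 at 22802 CPM, the chemokine Ccl6 at 17626 CPM and the resistin-like protein Retnlg at 16871 CPM. Actin-binding Tmsb4x, ferritin light chain Ftl1 and S100a6 completed the leading genes at 15351, 11392 and 10785 CPM.

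The 5 marker genes given for the class were all higher in the members than in the other cells. Thrombospondin 1 (Thbs1), a secreted matrix glycoprotein, stood at 2320 CPM (2261 to 2379) against 1039 CPM, 2.23-fold. The nuclear lamina gene Lmnb1 stood at 332 against 191 CPM, 1.74-fold, and lysozyme (Lyz2) at 1103 against 646 CPM, 1.71-fold. The glucose transporter Slc2a3 stood at 139 against 84.7 CPM, 1.64-fold. Retnlg, at 16871 against 12132 CPM, differed least at 1.39-fold. Thbs1, Lmnb1, Lyz2 and Slc2a3 were also lower in OVX than in sham members (below), and the members held fewer OVX than sham cells. These markers did not all set the class apart from the same neighbours. Thbs1 was close in the activated stefin-low cells (1997 CPM) and lower in stefin-high cells (864 CPM), whereas Retnlg was close in stefin-high cells (14559 CPM) and lower in the activated cells (5957 CPM). Lyz2 and Lmnb1 followed Thbs1, at 1043 and 289 CPM in the activated stefin-low cells and 553 and 171 CPM in the stefin-high cells. These levels carry the unequal mix of pools in each class, and levels within 1 pool are not given here.

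**Figure D2:**
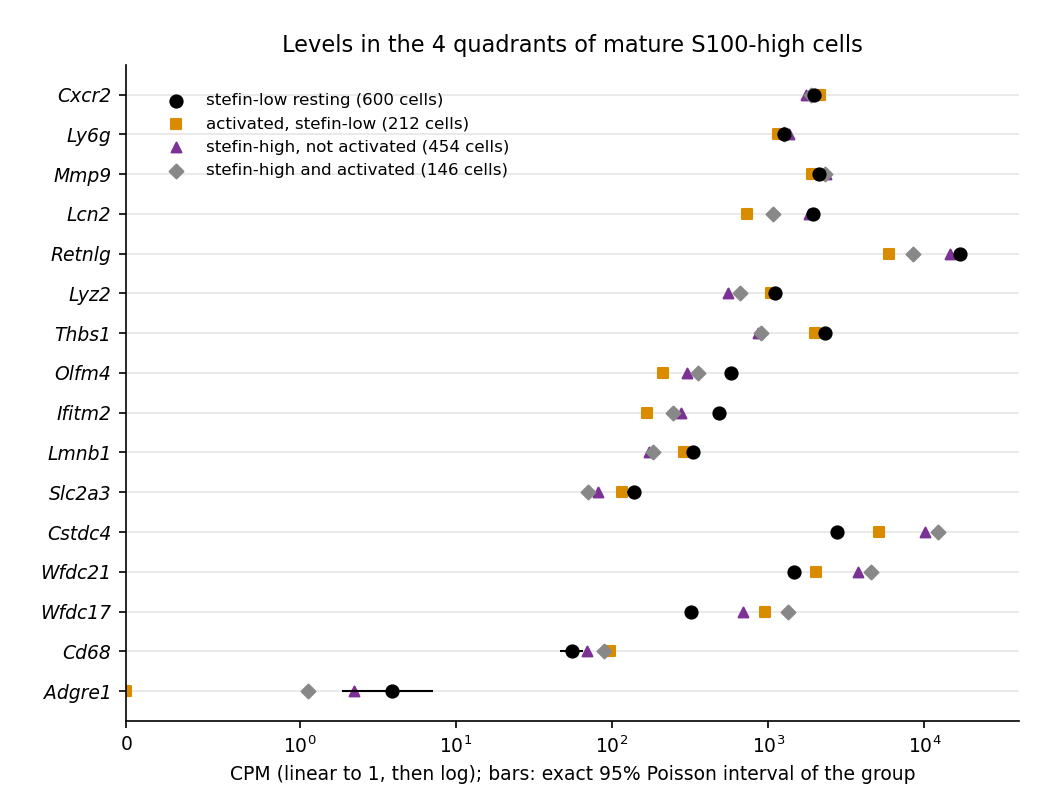
Level of 16 genes (x axis, CPM, linear to 1 and logarithmic above) in stefin-low resting neutrophils (black, bars for the exact Poisson 95% interval) and in the other kinds of mature S100-high cells. Cxcr2, Ly6g and Mmp9 lay close together in all 4, Thbs1 and Lyz2 were lowest in the stefin-high cells, Retnlg was lowest in the activated stefin-low cells, and Adgre1 stayed under 4 CPM.

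Beyond the given markers, the larger folds were those of single genes with different roles. Olfactomedin 4 (Olfm4), a secondary granule protein that marks a subset of mouse neutrophils, stood at 581 against 299 CPM, 1.94-fold, and was found in 199 members. Ifitm2 stood at 484 against 256 CPM (1.89-fold) and Ifitm3 at 286 against 175 CPM (1.63-fold), and both restrict virus entry. Histidine decarboxylase (Hdc), which makes histamine, stood at 115 against 65.0 CPM (1.78-fold), and the secretory pathway protein Tmed5 at 152 against 82.5 CPM (1.84-fold). Cxcr4 was found at 167 against 116 CPM, 1.44-fold, while the colony-stimulating factor receptor Csf3r was at 877 against 1050 CPM. Of the 5 secondary granule genes tested that the limits had not used, the median fold was 1.27, beside a median of 1.05 over all 1246 genes. For 10 tested genes of a chemokine, interleukin-1 and NF-kB list outside the limits it was 0.835. The chemokine Cxcl3 of that list still stood at 4283 CPM in the members.

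The largest fold rested on very few cells. Platelet factor 4 (Pf4), a chemokine of megakaryocytes and platelets, stood at 255 against 6.56 CPM, but 5 of the 600 members, each with at least 2 Pf4 UMIs, held 98.5% of it. Those 5 cells (2 OVX and 3 sham) had a median of 11159 UMIs against 3506 in the other members, and 12.2% against 23.1% of calprotectin UMIs. They also held 96.9% of the members' UMIs for the scavenger receptor Cd36. In the other members Pf4 stood at 3.97 CPM, and its fold over the other cells was 0.605. Whether these barcodes were cells of another type or pairs of cells was not tested.

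At the lower end were, besides the genes of the limits, other members of the same gene families. Cstdc4, a stefin A family gene that the limits did not use, stood at 2770 against 9713 CPM (0.285-fold), and Stfa3 at 42.4 against 254 CPM (0.167-fold). Both antiproteases Wfdc17 and Wfdc21 were low in the members, at 322 against 848 CPM (0.38-fold) and 1453 against 3633 CPM (0.4-fold). Both genes were, however, higher in OVX than in sham members (below), and the members held fewer OVX (191) than sham cells (357). The secretory kinase Fam20c, at 57.1 against 125 CPM, and the endocytic adaptor Dab2, at 59.9 against 132 CPM, were at 0.456-fold and 0.454-fold. Cstdc4 reached 10011 CPM in the stefin-high cells and 5131 CPM in the activated stefin-low cells, and its level was lowest of the 4 classes in the members. Cstdc4 and Fam20c were also higher in OVX than in sham members, whereas Stfa3 was lower (below). The part of the unequal mix of pools in these folds and levels was not tested.

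Next, OVX and sham members were compared. Of 1311 genes at 100 CPM or more in either pool, 35 (2.67%) were at least 2-fold higher in OVX members and 5 (0.381%) at least 2-fold lower, and the median ratio over all genes was 0.961 (-0.06 on the log2 scale). A ratio below 1 was found for 56.4% of the genes, which became 67.5% with TMM scaling and 66.2% with median-of-ratios scaling. The genes at 2-fold became 27 higher and 11 lower with TMM scaling, and 29 and 10 with median-of-ratios scaling. The split between higher and lower thus depended on the scaling. The interval of the ratio lay wholly above 1 for 256 genes and wholly below 1 for 295. As these intervals do not hold the variation between mice, they do not separate an effect of surgery from a difference between 2 pools.

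**Figure D3:**
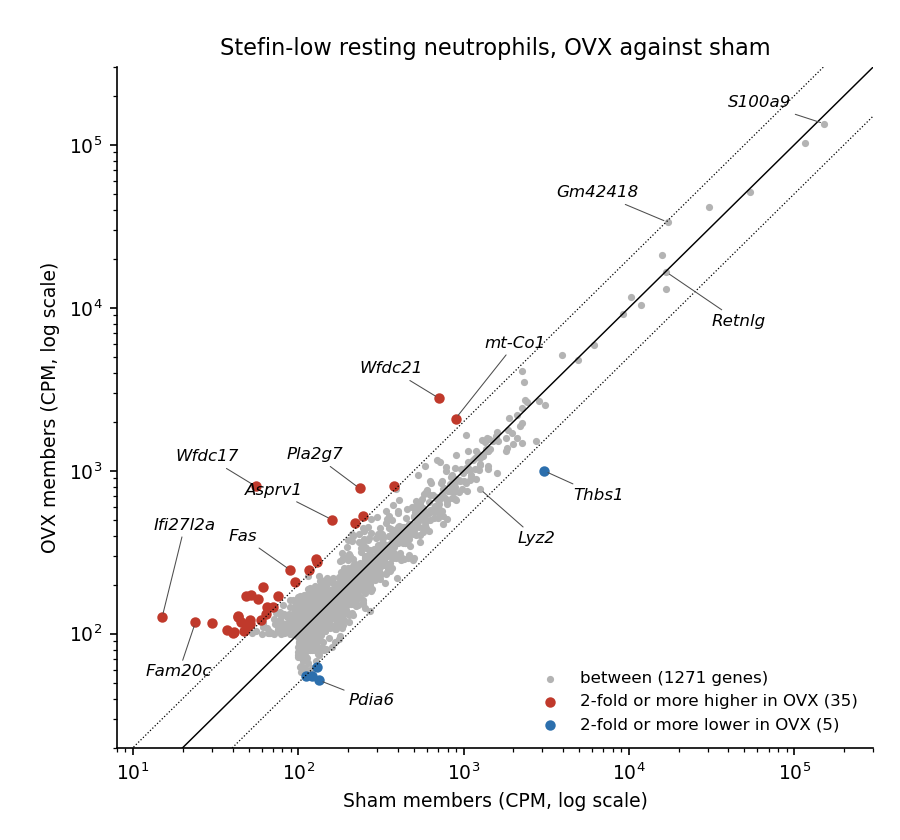
Level of 1311 genes in sham members (x axis, CPM, log scale) and OVX members (y axis, CPM, log scale), with the line of equal levels and dotted lines at 2-fold. The 35 genes in red lie at or above the upper dotted line, led by Wfdc17, and of the 5 in blue Thbs1 is the most abundant.

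The WAP-domain antiprotease Wfdc17 had the highest ratio of the 1311 genes, and Wfdc21 the 4th highest. Wfdc17 stood at 803 CPM in OVX members (747 to 863) and 55.2 CPM in sham members (43.9 to 68.6), a ratio of 14.6 (11.6 to 18.5). Wfdc21 stood at 2785 CPM (2678 to 2894) against 711 CPM (669 to 756), a ratio of 3.92 (3.64 to 4.21). Slpi, the secretory leukocyte protease inhibitor, stood at 523 against 301 CPM, a ratio of 1.74 (1.53 to 1.98). All 3 genes of the list were higher in OVX members, 2 of them by at least 2-fold, beside 56.4% of all genes below 1 and 2.67% at 2-fold or more. Wfdc17 lies at chr11:83703991-83706268 and Wfdc21 at chr11:83746940-83752642 (GRCm38, plus strand), a short distance apart. Cell by cell, Wfdc21 was broad, with a median of 16.9 UMIs per 10000 in OVX members and 2.15 in sham members, whereas the median for Wfdc17 was 0 in both pools and its upper quartile 6.32 in OVX and 0 in sham members.

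To take depth out of these shares, each cell was thinned to 1000 UMIs, which left out 8 OVX and 20 sham members. A Wfdc17 UMI was then found in 49 of 183 OVX members (26.8%, 20.5 to 33.8) and 10 of 337 sham members (2.97%, 1.43 to 5.39), compared with 40.8% and 7% before thinning. In 189 barcodes rich in Prg4 and Dcn (median 20523 UMIs), which should lack the gene, none of the 178 deep enough to thin had one (exact upper limit 2.05%). Before thinning, 13 of those 189 deeper barcodes had a Wfdc17 UMI (6.88%, 3.71 to 11.5), a share close to that of the sham members. Wfdc21 was found in 71.6% of thinned OVX members (131 of 183), 34.4% of sham members (116 of 337) and 3.37% of the Prg4- and Dcn-rich barcodes, compared with 85.9%, 56.6% and 27.5% before thinning. Among OVX members, Wfdc21 was detected in 83.7% of the 49 cells with Wfdc17 (70.3 to 92.7) and in 67.2% of the 134 without it (58.5 to 75). These intervals overlap, which does not show that the shares were equal, and the difference was not tested. Among sham members the counts were 5 of 10 and 111 of 327. At this depth a cell with no Wfdc17 UMI may still hold the transcript.

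Thbs1, the given marker with the largest fold over the other cells, also had the lowest OVX to sham ratio of the 1311 genes. It stood at 999 CPM in OVX members (935 to 1065) and 3074 CPM in sham members (2985 to 3166), a ratio of 0.325 (0.302 to 0.349). The median cell had 1.6 UMIs per 10000 in OVX and 20.1 in sham members. After thinning, a Thbs1 UMI was found in 67 of 183 OVX members (36.6%, 29.6 to 44.0) and 231 of 337 sham members (68.5%, 63.3 to 73.5), against 7.3% in the Prg4- and Dcn-rich barcodes. Before thinning the shares were 53.4%, 85.2% and 50.3%. The receptor Cd47, which binds thrombospondin, stood at 799 against 866 CPM, a ratio of 0.922. Of the OVX members with a Thbs1 UMI, 64.2% also had a Wfdc21 UMI (51.5 to 75.5), and of those without it 75.9% (67.0 to 83.3), whose intervals overlap. OVX members with Thbs1 and without it could not be separated by Wfdc21 at this depth. The other 4 genes at 0.5-fold or less were near the level limit. They were Pdia6, the myeloid receptor Trem3 at 55 against 121 CPM (0.456, 0.327 to 0.626), the purine enzyme Adss at 62.6 against 130 CPM (0.48, 0.352 to 0.648) and the locus AI662270 at 55 against 112 CPM (0.492, 0.352 to 0.677).

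**Figure D4:**
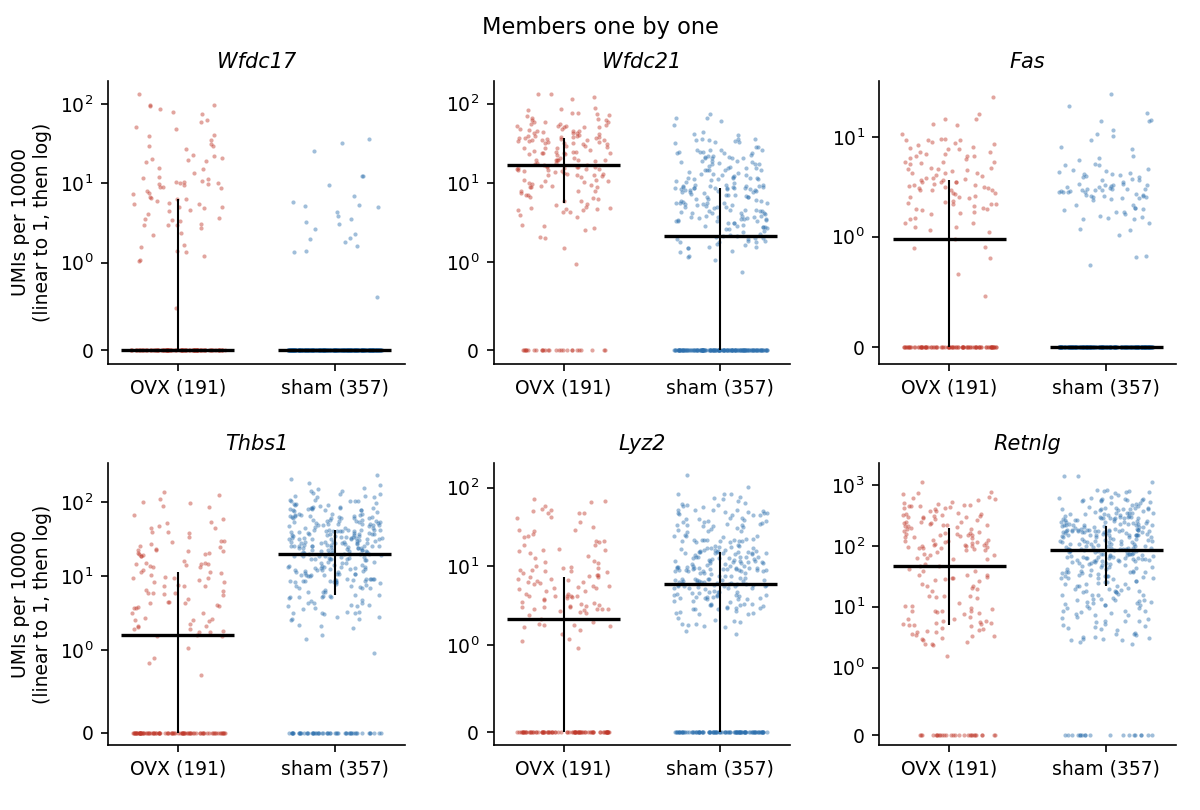
UMIs per 10000 gene UMIs (y axis, linear to 1 and logarithmic above) of 6 genes in each of 191 OVX members (red) and 357 sham members (blue), with the median as a horizontal and the quartiles as a vertical line. The Wfdc21 median was 16.9 in OVX and 2.15 in sham members, and the Thbs1 median 1.6 and 20.1, while cells of both pools spanned most of the range.

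The other given markers ranged from lower to even. Slc2a3 stood at 88.4 against 167 CPM (ratio 0.529, 0.407 to 0.683), Lyz2 at 773 against 1256 CPM (0.616, 0.564 to 0.672) and Lmnb1 at 253 against 369 CPM (0.687, 0.587 to 0.802). Retnlg showed no separation in the summed counts, at 16649 against 16754 CPM (0.994, 0.974 to 1.01). This gene varied strongly from cell to cell, from 0 to 1437 UMIs per 10000, and deep cells weighed more in the sum. Among members below the median depth it stood at 6508 CPM (OVX) and 14494 CPM (sham) (0.449, 0.422 to 0.477), and among those at or above it at 19279 and 17643 CPM (1.09, 1.07 to 1.12). The median cell had 47.4 and 86.2 UMIs per 10000. All 5 given markers had ratios below 1, beside 56.4% of all genes tested, but Retnlg only by a margin within counting error.

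The remaining genes at the top of the OVX order belonged to no single list. Pla2g7, the plasma phospholipase that inactivates platelet-activating factor, stood at 779 against 235 CPM (3.31, 2.91 to 3.77). Asprv1, an aspartic protease, stood at 501 against 160 CPM (3.14, 2.68 to 3.69). Fam20c, which phosphorylates secreted proteins, stood at 118 against 23.9 CPM (4.93, 3.34 to 7.43). Ifi27l2a, an interferon-inducible mitochondrial protein, stood at 126 against 15 CPM (8.41, 5.3 to 13.9), but it was found in 53 members, a single cell held 21.4% of its UMIs, and its ratio ran from 4.97 without the stefin limit to 19.4 in members with no stefin UMI. The actin regulator Enah (3.5), the matrix protein Tgfbi (3.33), the immunophilin Fkbp1a (3.16) and the unnamed locus Gm46224 (3.88) completed the 10 largest ratios. Further down the 35 were the benzodiazepine receptor of the outer mitochondrial membrane, Tspo, at 480 against 221 CPM (2.17, 1.88 to 2.52), the interleukin-13 receptor chain Il13ra1 at 126 against 42.9 CPM (2.94), the lysosomal protease Ctsc, which activates granule serine proteases, at 169 against 75 CPM (2.26) and the inhibitory lectin Siglece at 133 against 63.4 CPM (2.09). The cytochrome oxidase subunit mt-Co1 was among them at 2091 against 894 CPM (2.34, 2.18 to 2.51), as part of the mitochondrial difference described above. The interferon gene Oasl2 lay below the level limit, at 75.5 against 4.09 CPM, whereas the 4 tested genes of the interferon-stimulated list had a median ratio of 0.9, 2 above and 2 below 1.

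Genes of cell survival and inflammatory output were examined next. The death receptor Fas stood at 246 against 89.3 CPM (2.75, 2.21 to 3.44), and was found in 45 of 183 thinned OVX members (24.6%) and 32 of 337 sham members (9.5%), against 1.12% of the Prg4- and Dcn-rich barcodes. Before thinning these shares were 52.9%, 24.6% and, in the deeper Prg4- and Dcn-rich barcodes, 24.3%. Of 7 survival and death genes tested, 1 had a ratio below 1 (2 with TMM scaling), beside 56.4% of all genes tested (67.5% with TMM), and 1 (Fas) reached 2-fold, with a median of 1.18 beside 0.961 over all genes. Of 10 tested genes of the chemokine, interleukin-1 and NF-kB list outside the limits, 3 were below 1 with a median of 1.4, and none reached 2-fold. The list included the neutrophil-attracting chemokine Cxcl2 at 4096 against 2263 CPM (1.81, 1.73 to 1.9), Il1b at 428 against 248 CPM (1.73, 1.49 to 1.99) and the NF-kB inhibitor Nfkbia at 509 against 343 CPM (1.48). All 3 tested class I antigen presentation genes were above 1, led by H2-D1 at 1659 against 1039 CPM (1.6, 1.49 to 1.71). Activation genes were capped by the limits, so their values are a description. Ccl3 stood at 128 against 78.4 CPM (1.64), Ccl4 at 27 against 22.5 CPM (1.2) and Jaml, one of the 35 genes, at 112 against 49.8 CPM (2.25).

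Receptors for egress and homing divided. Of 14 tested, 9 had ratios above 1 and 5 below (7 with TMM scaling), with a median of 1.08. The granulocyte growth factor receptor Csf3r stood at 1125 against 725 CPM (1.55, 1.42 to 1.69) and Cxcr2 at 2099 against 1882 CPM (1.12, 1.05 to 1.18). The retention receptor Cxcr4 stood at 129 against 186 CPM (0.695, 0.556 to 0.865), and the integrin Itgam, which encodes the CD11b antigen of the sort, at 1877 against 2207 CPM (0.85). Of 5 secondary granule genes tested that the limits had not used, 3 were below 1 with a median of 0.794, a split near that of all genes, of which 56.4% were below 1 (67.5% with TMM scaling). Lcn2 stood at 1478 against 2253 CPM (0.656, 0.615 to 0.699), and haptoglobin (Hp), at 506 against 276 CPM (1.83, 1.6 to 2.1), went the other way. Of the membrane metalloproteinases, Mmp25 stood at 290 against 462 CPM (0.628, 0.543 to 0.724). Genes of the respiratory burst gave a median of 0.91 over 5 tested, and genes of the thioredoxin and NRF2 list a median of 1.07 over 12 (1 with TMM scaling), 8 of them above 1 and 4 below. At the ends of that list, mitochondrial superoxide dismutase Sod2 stood at 164 against 57.3 CPM (2.86, 2.18 to 3.78) and heme oxygenase Hmox1 at 968 against 1599 CPM (0.606, 0.56 to 0.655).

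A set of endoplasmic reticulum (ER) folding genes recurred at the low end and was listed after that had been noticed, so its count is a description. Of 12 tested genes of 22 listed, 11 had ratios below 1, with a median of 0.602 beside 0.961 over all genes, and 1 (Pdia6) reached 2-fold. Over all genes, 56.4% were below 1 (67.5% with TMM scaling) and 0.381% at 0.5 or less. The disulfide isomerase Pdia6 stood at 51.8 CPM (OVX) and 134 CPM (sham) (0.387, 0.276 to 0.534), and in members with no stefin UMI its ratio was 0.585 (0.346 to 0.946). The lumenal chaperones Hspa5 (BiP) and Hsp90b1 (Grp94) stood at 470 against 746 CPM (0.63, 0.563 to 0.705) and at 220 against 394 CPM (0.558, 0.474 to 0.656). The secreted ER protein Manf stood at 92.7 against 177 CPM (0.525), the lectin chaperone Canx at 65.8 against 115 CPM (0.574) and the translocon subunit Sec61g at 143 against 252 CPM (0.569). The isomerase P4hb, at 110 against 96.1 CPM (1.14, 0.878 to 1.49), was the exception, and the transcription factor Xbp1 was near even at 695 against 739 CPM (0.94, 0.851 to 1.04). Without the 5 cells that held Pf4 the median was 0.564, and in members with no stefin UMI it was 0.725.

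Several of these genes carry the ER stress element, the sequence through which the unfolded protein response acts on chaperone promoters, and windows that hold it are shown with its position and strand, which differed from gene to gene. The element was searched as CCAAT, any 9 bases and CCACG, on both strands, in RefSeq windows from 250 bases before to 50 bases after each start (GRCm38.p6). It occurred in 39 of 32851 windows (0.119%). Counted by gene symbol, it occurred in 37 of 27025 symbols (0.137%), and in 7 of the 18 listed genes that had a window. Because the element is one of chaperone promoters and the list holds chaperones, nothing is read from this contrast. Capitals mark the element in the windows below, which run 5′ to 3′ on the strand of the gene and lie outside annotated exons.
Pdia6, chr12:17266471-17266529, plus strand, element ending 80 bases before the start: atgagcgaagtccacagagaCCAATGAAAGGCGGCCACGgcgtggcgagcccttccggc
Canx, chr11:50325780-50325838, minus strand, 127 bases before the start: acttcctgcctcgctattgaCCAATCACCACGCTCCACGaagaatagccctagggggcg
Hsp90b1, chr10:86705618-86705676, minus strand, 194 bases before the start: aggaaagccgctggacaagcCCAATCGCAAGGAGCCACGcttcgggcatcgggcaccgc
Hsp90b1, chr10:86705513-86705571, minus strand, reversed element 89 bases before the start: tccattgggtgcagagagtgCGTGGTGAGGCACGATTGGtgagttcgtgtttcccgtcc
The other genes with the element were Hspa5, Calr, Creld2 and Dnajc3, and their ratios ran from 0.396 for Creld2 (8.63 against 21.8 CPM) to 0.917 for Dnajc3 (0.636 to 1.31). Genes whose window lacked it included Pdia3, at 79.8 against 144 CPM (0.555), so that low ratios were found with and without a match. A match is a description of the letters and does not show that the element was used.

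The direction of these ratios was followed into the neighbouring cell classes, whose OVX and sham cells come from the same 2 pools and are no replicate. Of the 35 genes at 2-fold or more in the members, 33 were above 1 in the activated stefin-low cells, 34 in the stefin-high cells and 32 in the granule-high cells, beside 50.8%, 40.8% and 35.7% of all 1311 genes, and 21, 24 and 12 of them were again at 2-fold or more. Over all 1311 genes that level was reached by 5.72%, 2.59% and 1.53% in those classes. In the stefin-high and activated cells, with 125 OVX and 20 sham cells, 27 of the 35 were above 1 and 17 at 2-fold or more, beside 49.8% and 9.92% of all genes, and 1 gene (Wfdc17) had no ratio because no sham cell held it. In the activated stefin-low, stefin-high and granule-high cells, in this order, Wfdc17 had ratios of 28.8, 18.7 and 12.1, and Wfdc21 of 4.32, 5.45 and 1.94. Thbs1 had ratios of 0.175, 0.216 and 0.514 in those classes. Of the 5 genes at 0.5 or less, 3 were below 1 in the activated stefin-low cells, 5 in the stefin-high cells, 4 in the stefin-high and activated cells and 5 in the granule-high cells, beside 49.2%, 59.1%, 49.7% and 64.3% of all genes. In the same order, 1, 4, 3 and 3 of them were again at 0.5 or less, beside 2.06%, 1.3%, 3.2% and 0.763% of all genes. Other genes differed by class. Cxcl2 stood at 1.81 in the members and 0.746 (0.705 to 0.79) in the activated stefin-low cells, and Pla2g7 at 3.31 and 1.4. Stfa3 went from 0.214 (0.11 to 0.384) in the members, where 28 cells held its UMIs, to 5.7 in the stefin-high cells. These differences between classes were not tested.

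**Figure D5:**
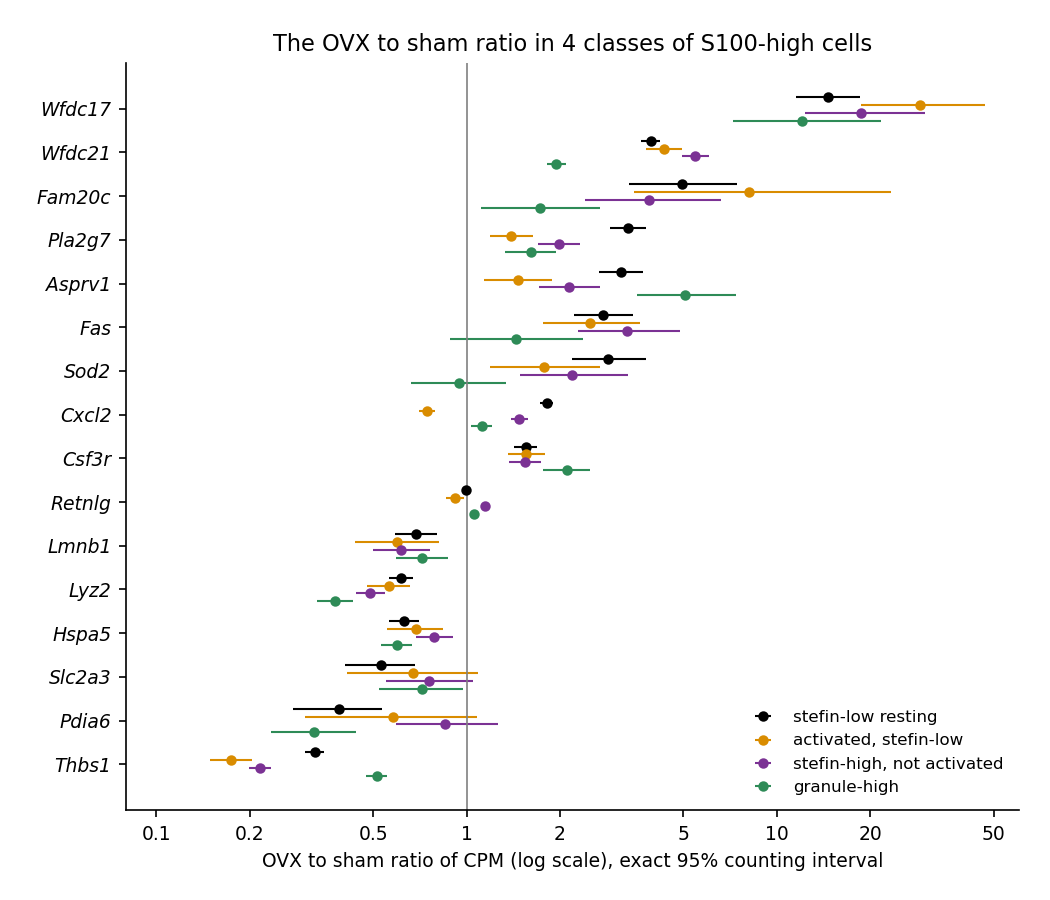
OVX to sham ratio of CPM (x axis, log scale) for 16 genes in stefin-low resting neutrophils (black) and in 3 neighbouring classes, with bars for the exact 95% counting interval. Wfdc17 and Wfdc21 lie above 1 and Thbs1, Lyz2, Lmnb1 and Hspa5 below 1 in all 4 classes, whereas Cxcl2 and Sod2 fall on different sides of 1.

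Within the limits, 3 of 4 tested stefin family genes had OVX to sham ratios above 1, beside 56.4% of all genes tested below 1. The limits use 2 of the 4. Of the other 2, 1 was above and 1 below 1, with a median of 1.15. Stfa2l1, a gene of the limits, stood at 398 against 215 CPM (1.85) and Cstdc4 at 3520 against 2319 CPM (1.52). Below the level limit, Stfa3 stood at 14 against 65.4 CPM (0.214) and Stfa2 at 41 against 38.2 CPM (1.07). The values are therefore also given for members with and without a UMI of the 3 stefin genes, a split that uses genes of the limits and is a description. In these 74 OVX and 197 sham cells, Wfdc17 stood at 540 against 73.7 CPM (7.33, 5.3 to 10.3) and Wfdc21 at 2638 against 647 CPM (4.08, 3.62 to 4.59). Thbs1 stood at 1439 against 3287 CPM (0.438, 0.392 to 0.488) and Lyz2 at 682 against 1254 CPM (0.544, 0.461 to 0.639). Gm42418 came down to 21762 against 19436 CPM, a ratio of 1.12 (1.09 to 1.15), while mitochondrial transcripts stayed apart at 6685 against 3064 CPM (2.18, 2.05 to 2.32). Hspa5 moved to 581 against 722 CPM (0.804, 0.667 to 0.964). In the 117 OVX and 160 sham members with at least 1 stefin UMI, the ratio was 23.9 for Wfdc17, 0.285 for Thbs1, 0.554 for Hspa5 and 2.53 for Gm42418. Other ratios lay farther from 1 in the cells with no stefin UMI. Asprv1 had a ratio of 4.54 (3.38 to 6.13) there and 2.43 (2.01 to 2.96) in cells with a stefin UMI, mitochondrial transcripts 2.18 and 1.51, Wfdc21 4.08 and 3.69, and Lyz2 0.544 and 0.644. These differences between the strata were not tested.

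Members were far from uniform, and the genes that varied most between them were mostly the abundant ones. In 568 members thinned to 1000 UMIs, the variance to mean ratio (1 for pure counting) had a median of 1.19 over 570 genes with a mean of at least 0.2 UMIs. It was 106 for Gm42418, 36 for S100a9, 25.9 for Retnlg and 20.2 for S100a8. Among less abundant genes it was 8.56 for Cstdc4, 8.05 for the chemokine Cxcl3, 5.91 for Wfdc17, 5.25 for Thbs1 and 4.02 for Olfm4. These values take both pools together, so a difference in level between the pools, as for Wfdc17 and Thbs1, adds to them. Thbs1 and Retnlg were also followed in the same thinned cells. A Thbs1 UMI was present in 57 of 136 OVX members with Retnlg (41.9%, 33.5 to 50.7) and 10 of 47 without it (21.3%, 10.7 to 35.7). Among sham members it was present in 208 of 293 with Retnlg (71%, 65.4 to 76.1) and 23 of 44 without it (52.3%, 36.7 to 67.5). In both pools the share was thus higher in cells with Retnlg. The intervals overlapped, which does not show that the shares were equal, and the difference was not tested.

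The medians of the broader housekeeping and effector lists ran from 0.9 to 1.18, beside 0.961 over all genes, of which 56.4% had ratios below 1 (67.5% with TMM scaling). Of 11 actin regulators tested, 9 had OVX to sham ratios below 1 (11 with TMM scaling) with a median of 0.913. Of 6 S100 and annexin genes outside the limits 5 were below 1 with a median of 0.9. The calprotectin genes, used by the limits, are a description, S100a8 standing at 103250 against 115653 CPM (0.893, 0.886 to 0.9) and S100a9 at 134780 against 152616 CPM (0.883, 0.877 to 0.889). Glycolysis and glycogen genes gave a median of 0.934 over 12 tested, 8 of them below 1 (9 with TMM scaling). Fc gamma and inhibitory receptors gave 0.968 over 11, with 6 below 1 (8 with TMM scaling). Immediate early genes gave 1.07 over 13 (1.01 with TMM scaling). Toll-like receptor sensing gave 0.926 over 4, with 2 below 1 (4 with TMM scaling). All 5 tested genes of the p53 and arrest list were above 1, with a median of 1.07, and all 4 granulopoiesis factors, with a median of 1.18, but with TMM scaling 1 gene of each list was below 1 and the medians were 1 and 1.11. None of the tested genes in these 8 lists reached 2-fold in either direction. The estrogen receptor Esr1, which binds the hormone that ovariectomy removes, had 1 UMI in all 600 members (0.389 CPM, up to 2.17).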

How the data were processed

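Single-cell 3′ RNA and hashtag libraries of pooled OVX and sham cells were analysed from the count matrix as deposited by the authors, which holds raw UMI counts for 32285 genes and 2 hashtags in 2349 barcodes. The authors aligned reads to mm10 and counted UMIs with Cell Ranger (6.0.1 in the processing notes, 6.0.0 in the file header); featureCounts 1.5.0-p3 is also named in the notes. Condition was called from hashtag counts with HTODemux (Seurat 5.3.0, quantile 0.99, R 4.3.3), barcodes with both hashtags were left out of the comparison, and no further doublet caller or quality filter was run. UMIs were summed over cells and scaled to 1000000 (CPM) with Python 3.11.15. Poisson intervals of CPM, Clopper-Pearson intervals of shares and conditional binomial intervals of ratios were exact at 95%. Genes named were the 10 highest, the 10 largest and smallest folds over the other classes and OVX to sham ratios (at 100 CPM or more in either), the genes of the limits, given markers and fixed lists, with mitochondrial and ribosomal genes summed. Genes or cells named outside this rule (the ER list, Dab2, Tspo, Il13ra1, Ctsc, Siglece, mt-Co1 and the Pf4-rich cells) were chosen after their values were seen. Members and lists were chosen with earlier results of these data known. Gene positions are from GENCODE M21 (GRCm38) and promoter windows from RefSeq (GRCm38.p6). Scaling alternatives used edgeR 4.0.16 and DESeq2 1.42.0 for factors only. The interval code was tested on simulated data. Results for a few genes are not reported here.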

Additional observations from a re-analysis of the deposited data

Results flagged for a closer look

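Cells without a single hashtag were outside the comparison of the pools, and some of them met every limit of the class. There were 44 members below the cutoff for both hashtags, with a median of 43.5 UMIs of hashtag 1 and 1127 of hashtag 2. Their Wfdc21 level was 568 CPM (457 to 700) and their Thbs1 level 3015 CPM (2749 to 3299), with 1 Wfdc17 UMI in all of them (6.39 CPM, 0.162 to 35.6). Under a simpler call, in which 1 hashtag must make up 80% or more of a cell's hashtag UMIs, 43 of the 44 went to sham and none to OVX. A further 8 members were above both cutoffs, and stood at 1051 CPM for Wfdc21 (666 to 1577) and 2741 CPM for Thbs1 (2092 to 3528).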

How the results depend on the processing

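The OVX to sham ratio of the share of cells (0.496) became 0.622 with a stefin limit of 0.4% and turned to 1.09 with none. The 35 genes at 2-fold or more in OVX members became 68 with a 50 CPM minimum, 13 with 200 CPM, 2382 with no minimum, where most counts were very low, and 61 in members with no stefin UMI, 26 of them among the 35. The 5 genes at 0.5 or less became 8 with the 80% hashtag rule, 10 with median-of-ratios scaling, 11 with TMM, 14 with S100a8, S100a9 and mitochondrial genes out of the total, 13 with equal weight per cell, 19 with 50 CPM, 1 with 200 CPM, 2251 with no minimum, 11 with a stefin limit of 0.1% and 22 in members with no stefin UMI. The causes were not tested. The alternatives were followed for 51 results (single genes and the summed mitochondrial transcripts), among them the 10 largest and 10 smallest OVX to sham ratios. Many were thus chosen for ratios far from 1, and the alternatives reuse mostly the same cells, so the next count is a description. Of the 51, 48 kept their side of 1 in each alternative. The exceptions were Retnlg (0.832 to 1.03), Pf4 between OVX and sham without the stefin limit (0.662), and the fold of Pf4 over the other cells without the 5 cells rich in it (0.605). The Wfdc17 ratio ranged from 7.33 to 17.9, Wfdc21 from 3.68 to 5.37 and Thbs1 from 0.226 to 0.438. Other ranges wider than 1.5 times included 4.97 to 19.4 for Ifi27l2a, 3.13 to 6.5 for Tgfbi, 2.77 to 5.09 for Enah, 0.531 to 0.818 for Lmnb1, 1.9 to 3.34 for Fkbp1a, 2.53 to 4.54 for Asprv1, 1.28 to 2.83 for Cstdc4, 1.12 to 2.17 for Gm42418 and 0.363 to 0.585 for Pdia6. Leaving out the Pf4-rich cells and keeping members with no stefin UMI were chosen after seeing the data. No paired analysis was possible because each condition was a single pool, and no sample could be left out. At 927227 OVX and 1466908 sham UMIs, genes under the 100 CPM minimum rested on few counts.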
